A study of Arabidopsis thaliana with 9 samples.

Results

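Seedlings that lack 3 B-box proteins were set directly against seedlings that lack HY5, to read where the loss of the B-box proteins and the loss of their partner left different transcript levels in red light. The comparison used all 3 libraries of bbx202122, a triple mutant in BBX20, BBX21 and BBX22, and all 3 libraries of hy5, which are 6 of the 9 libraries of the series, and every gene of the count files. The 3 libraries of wild type (WT, Col-0) are given as a reference level. All groups were whole Arabidopsis thaliana seedlings raised alike on half-strength Murashige and Skoog medium free of sucrose. Seeds were stratified for 2 days at 4 °C, received white light of 90 µmol per square metre and second for 2 h, stayed in darkness for 22 h, and then grew for 3 days at 22 °C in red light of 80 µmol per square metre and second. They were 4 days old at harvest, and RNA selected on oligo(dT) was sequenced on a BGISEQ-500 instrument. An ecotype is labelled for WT but for neither mutant, and no source used here gives the alleles, so the mutation and the sequence background of a mutant line cannot be told apart. The labels do not say whether replicates came from separate cultures; the spread behind each p-value is that between these samples and may be technical.

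HY5 is a bZIP transcription factor that accumulates in light and binds DNA elements with an ACGT core, the G-box among them. It has no transcription activation domain of its own, and B-box zinc finger proteins such as BBX20, BBX21 and BBX22 bind to it and supply activation at shared target genes. Light-grown seedlings need these factors for short hypocotyls, chlorophyll and anthocyanin pigments. HY5 also controls nutrient uptake, and the proteins are degraded in darkness through the ubiquitin ligase COP1.

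Of 20751 genes tested, 4773 differed between the mutants at an adjusted p under 0.05 (23.0%), with 2510 higher (12.1%) and 2263 lower (10.9%) in bbx202122 than in hy5. Adjusted p-values here and below come from edgeR's quasi-likelihood test with Benjamini-Hochberg adjustment over all genes tested, and "called" means past that threshold. A fold of at least 2 was reached by 668 of the called genes (3.22%), of which 469 were higher (2.26%) and 199 lower (0.959%) in bbx202122. Most genes stood close together in both mutants, since the 95% interval of the fold change lay wholly within 1.5-fold for 15395 genes (74.2%). The 3 libraries of bbx202122 did not overlap with the 3 of hy5 for 8022 genes (38.7%). The counts of gene lists below are read against the 23.0% called over all genes. The balance of directions depended on scaling: 52.6% of the calls were higher in bbx202122 with TMM scaling and 72.5% with plain library sizes, which moved the median log2 fold change of all genes to 0.08, against 0.01 with TMM. It was 73.0% with the authors' FPKM values, with a median of 0.07, but that alternative also changed the test to limma and the scale to log2 of FPKM plus 1. Library totals were 22.1 to 22.8 in units of 1e6 expected counts for bbx202122 and 21.7 to 21.9 for hy5, so 3 counts in a library correspond to between 0.127 and 0.143 counts per 1e6 counts (CPM). The seedlings were bulk samples, in which fewer cells of a type and less RNA per cell cannot be told apart. Levels in CPM are not divided by gene length and are compared for a gene between libraries, not between genes; a level followed by ± is the mean and SD of 3 libraries, and a pair joined by ± in brackets beside an adjusted p is a log2 fold change with its SE.

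**Figure D1:**
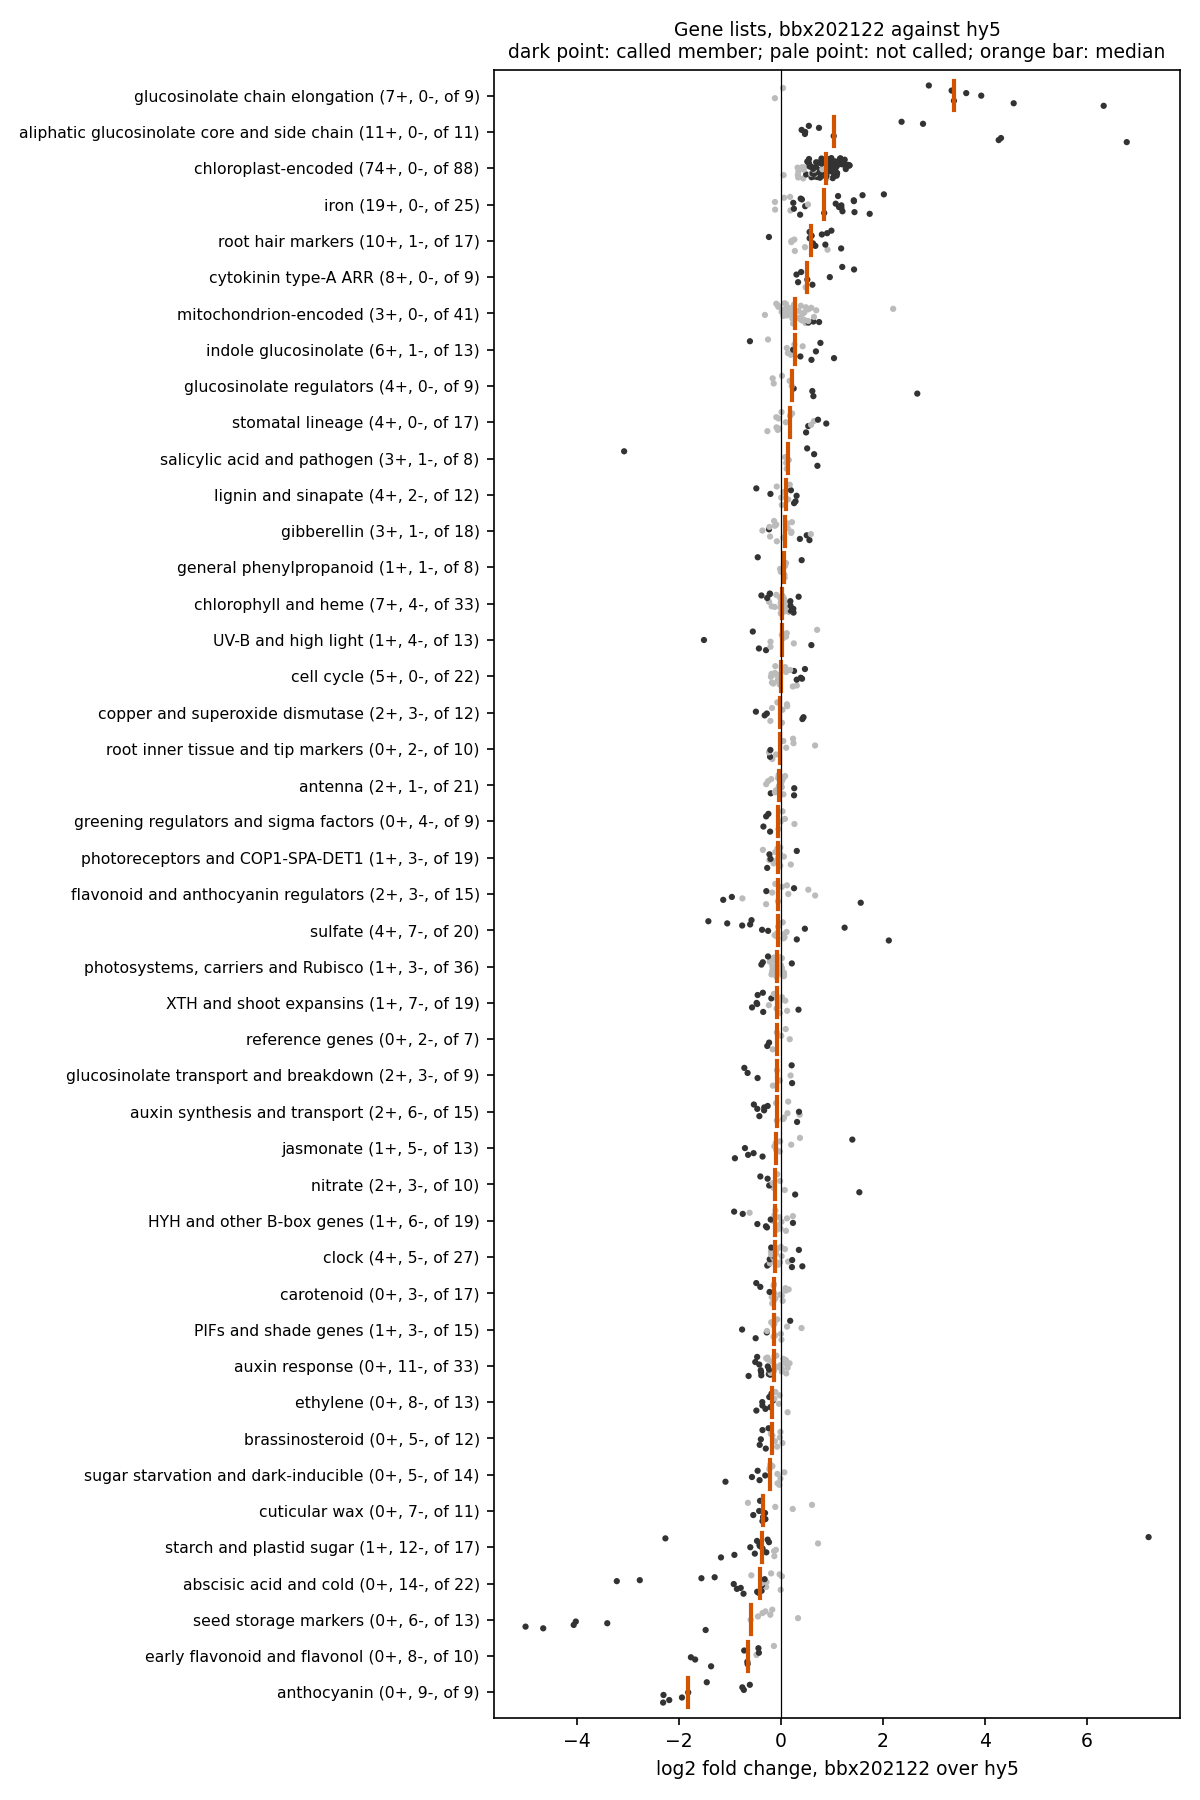
The plot shows the log2 fold change of bbx202122 over hy5 (horizontal axis) for each tested member of 45 gene lists (rows, ordered by median). Dark points are members called at an adjusted p under 0.05, pale points are members not called, and orange bars are list medians; counts of called members in each direction stand in brackets. Chain elongation genes of glucosinolates sit farthest to the right with a median of 3.39 and anthocyanin genes farthest to the left with a median of -1.82.

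The mutated genes were read first. BBX22 (AT1G78600, chr1:29566863-29568931 in TAIR10.1) had 2.96, 2.7 and 2.42 CPM in bbx202122, against 31.1, 29.4 and 29.0 CPM in hy5, a log2 fold change of -3.47 ± 0.09 (SE). BBX21 (AT1G75540) had 27.0, 24.9 and 25.1 CPM in bbx202122, against 143, 135 and 135 CPM in hy5, a log2 fold change of -2.42 ± 0.07. Both groups were far apart for these genes, and hy5 was near or above the WT means of 28.9 CPM for BBX22 and 101 CPM for BBX21. BBX20 (AT4G39070) ran the other way, with 4.07, 4.41 and 3.82 CPM in bbx202122, against 1.91, 2.44 and 2.07 CPM in hy5 and 0.93 ± 0.15, adjusted p = 0.0004. Its WT libraries had 4.99, 4.31 and 4.4 CPM and overlapped with bbx202122, so the level of this transcript does not set the triple mutant apart from WT. HY5 (AT5G11260) had 5.93, 6.84 and 6.25 CPM in bbx202122, against 9.07, 9.1 and 6.5 CPM in hy5, a range that overlaps, and 15.5, 16.4 and 18.4 CPM in WT. Its difference between the mutants was small (-0.38 ± 0.13, adjusted p = 0.049), and the call was lost in 9 of 15 alternatives, among them those with plain library sizes, FPKM, the DESeq2 test or the 6 mutant libraries alone, and those without bbx202122 replicate 1 or 3 or hy5 replicate 1 or 2. The transcript was low in both mutants. HYH, the closest relative of HY5, was not called, with 10.3, 11.2 and 11.8 CPM in bbx202122, against 10.5, 10.7 and 9.8 CPM in hy5 and 23.3, 27.2 and 25.8 CPM in WT; the 95% interval of its log2 fold change ran from -0.09 to 0.29. Of 19 tested genes in the list of HYH and other B-box genes, 1 was called higher and 6 lower, a count that fell to 4 without bbx202122 replicate 1, bbx202122 replicate 3 or hy5 replicate 2. COL1, a relative of CONSTANS, had 30.9 ± 0.611 CPM in bbx202122 and 42.5 ± 3.8 CPM in hy5, BBX31 had 1.59 ± 0.322 CPM in bbx202122 and 3.01 ± 0.332 CPM in hy5 and BBX24, a repressor that interferes with HY5, had 137 ± 4.26 CPM in bbx202122 and 166 ± 6.99 CPM in hy5, all lower in bbx202122.

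The promoters below are shown because their genes carry the opposite directions described next: MAM1 and CYP83A1 of the glucosinolate pathway were higher in bbx202122, whereas CHS, F3H and DFR of the flavonoid pathway were lower. Each is the 250 bases before the RefSeq gene start, read from the TAIR10.1 genome 5′ to 3′ on the gene's strand. Capitals mark CACGTG, the G-box, and any other ACGT core. Both motifs are their own reverse complements, so a search of the printed strand covers both strands, and every CACGTG also holds an ACGT.

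MAM1 (chr5:7702791-7703040, plus strand): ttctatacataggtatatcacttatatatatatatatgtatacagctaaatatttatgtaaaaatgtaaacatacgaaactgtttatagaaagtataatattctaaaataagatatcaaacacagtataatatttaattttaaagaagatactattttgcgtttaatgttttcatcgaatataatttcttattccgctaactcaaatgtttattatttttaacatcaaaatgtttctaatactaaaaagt

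CYP83A1 (chr4:7992430-7992679, minus strand): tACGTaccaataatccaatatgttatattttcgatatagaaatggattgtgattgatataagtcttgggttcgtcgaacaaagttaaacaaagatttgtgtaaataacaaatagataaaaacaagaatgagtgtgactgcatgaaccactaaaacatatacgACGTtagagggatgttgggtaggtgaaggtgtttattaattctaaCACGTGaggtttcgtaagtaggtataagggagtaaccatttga

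CHS (chr5:4488226-4488475, plus strand): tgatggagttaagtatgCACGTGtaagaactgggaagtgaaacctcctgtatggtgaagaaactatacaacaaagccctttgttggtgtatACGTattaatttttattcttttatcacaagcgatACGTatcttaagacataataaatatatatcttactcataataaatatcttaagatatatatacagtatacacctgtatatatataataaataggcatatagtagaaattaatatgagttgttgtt

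F3H (chr3:19024942-19025191, plus strand): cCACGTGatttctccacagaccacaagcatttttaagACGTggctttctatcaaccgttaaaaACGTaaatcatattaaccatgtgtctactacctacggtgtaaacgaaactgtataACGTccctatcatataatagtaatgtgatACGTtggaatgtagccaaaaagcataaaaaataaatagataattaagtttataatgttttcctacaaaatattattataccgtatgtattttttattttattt

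DFR (chr5:17166033-17166282, minus strand): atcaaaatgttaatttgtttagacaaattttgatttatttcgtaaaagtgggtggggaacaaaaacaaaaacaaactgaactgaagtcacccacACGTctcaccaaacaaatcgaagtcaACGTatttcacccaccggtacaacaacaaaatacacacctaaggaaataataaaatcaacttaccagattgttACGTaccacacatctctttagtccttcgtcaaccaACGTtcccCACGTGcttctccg

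The MAM1 window held neither motif. The other 4 windows each held 1 CACGTG, with 3 ACGT cores in CYP83A1, 3 in CHS, 5 in F3H and 5 in DFR. The windows shown do not stand for their groups. That of LDOX, an anthocyanin gene lower in bbx202122, held neither motif, and that of IPMI1, a glucosinolate gene higher there, held 2 ACGT cores and no G-box. The motif CACGTG was in 1 of 9 windows of chain elongation genes, 2 of 11 of the aliphatic core, 3 of 10 of early flavonoid genes and 3 of 9 of anthocyanin genes. The core ACGT was in 7, 8, 4 and 3 windows of these lists in the same order. Over all tested genes with a window, 7.44% held CACGTG and 44.6% held ACGT. The share with CACGTG was 6.04% for genes called higher in bbx202122, 8.4% for genes called lower and 7.52% for genes not called, and the shares with ACGT were 46.3%, 46.9% and 44%. These matches describe letters in a short window and say nothing of binding.

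Genes for aliphatic glucosinolates were the group with the largest positive median. Aliphatic glucosinolates are sulphur-rich defence compounds of the cabbage family, made from methionine by chain elongation, a core pathway and side-chain changes. Of 9 tested chain elongation genes, 7 were called higher in bbx202122 and 0 lower, with a median log2 fold change of 3.39 (1.70 with FPKM), against 0.01 over all genes. All 11 tested genes of the core and side-chain steps were called higher, with a median of 1.04, which was 1.84 without a count filter, 0.67 with FPKM and between 1.58 and 1.78 without any single library of either mutant. MAM1, the methylthioalkylmalate synthase that starts an elongation cycle (AT5G23010, chr5:7703041-7706973), had 9.6, 11.8 and 8.03 CPM in bbx202122, against 0.286, 0.657 and 0.283 CPM in hy5. Its libraries did not overlap, and the difference came to 23.6-fold (4.56 ± 0.33, adjusted p = 1.9e-07). IPMI1, an isomerase subunit of the same cycle, had 9.6, 6.75 and 6.71 CPM in bbx202122, against 0.573, 0.61 and 0.66 CPM in hy5 (3.63 ± 0.26, adjusted p = 1.6e-07). Its paralog IPMI2 had 6.63, 8.55 and 5.23 CPM in bbx202122, against 0.334, 0.563 and 0.424 CPM in hy5 (3.93 ± 0.32, adjusted p = 6.0e-07). Both genes were thus at least 5 CPM in every bbx202122 library and under 1 CPM in every hy5 library. IMD1, the dehydrogenase that follows, had 19.2, 19.1 and 13.3 CPM in bbx202122, against 1.77, 2.06 and 1.23 CPM in hy5 (3.35 ± 0.26, adjusted p = 3.2e-07). BASS5, the plastid carrier for the elongated keto acids, had 7.38, 5.0 and 6.76 CPM in bbx202122, against 0.955, 0.892 and 0.707 CPM in hy5 (2.90 ± 0.24, adjusted p = 5.7e-07). No library of hy5 reached any library of bbx202122 for these genes. For all but BASS5 this was a condition of their place among the 10 largest increases. The WT means of 16.4 CPM for MAM1, 28.9 CPM for IMD1 and 9.08 CPM for BASS5 were the highest of the 3 genotypes. The 2 members not called, IPMI_LSU1 and BCAT3, which also have a place in amino acid metabolism, had log2 fold changes of -0.12 and 0.04 with 95% intervals within 1.5-fold.

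In the core pathway, CYP83A1, the cytochrome P450 that converts aliphatic aldoximes (AT4G13770, chr4:7990429-7992429), had 17.3, 15.5 and 12.7 CPM in bbx202122, against 0.955, 0.938 and 0.377 CPM in hy5, a 19.9-fold difference (4.31 ± 0.29, adjusted p = 5.7e-08). CYP79F2, which makes aldoximes from elongated methionine, had 5.0, 5.09 and 3.02 CPM in bbx202122, against 0.191, 0.282 and 0.189 CPM in hy5 (4.27 ± 0.33, adjusted p = 2.9e-07). Its neighbour CYP79F1 held 278 counts in the 3 bbx202122 libraries together, against 2 in hy5, and the tandem pair is similar enough in sequence that reads may be shared. GSTU20, a glutathione transferase placed in the pathway, had 48.0, 44.5 and 41.4 CPM in bbx202122, against 24.4, 21.2 and 19.7 CPM in hy5 (1.04 ± 0.10, adjusted p = 2.5e-06). The groups were again apart for each of these genes, which for CYP83A1 was a condition of its place among the 10 largest increases. The fold was smaller for GSTU20 than for the P450 genes. Of 13 tested indole glucosinolate genes, 6 were called higher and 1 lower, with a median of 0.27. CYP79B3, which turns tryptophan into indole aldoxime, had 75.6, 84.6 and 87.3 CPM in bbx202122, against 39.6, 38.9 and 41.7 CPM in hy5 (1.04 ± 0.06, adjusted p = 2.2e-08). GSTF9 had 267 ± 15.9 CPM in bbx202122 and 166 ± 12.8 CPM in hy5, CYP81F4, a modifier of the indole ring, 201 ± 30.8 CPM in bbx202122 and 117 ± 8.83 CPM in hy5, and CYP79B2 42.1 ± 4.76 CPM in bbx202122 and 27.8 ± 2.68 CPM in hy5, all higher in bbx202122.

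Among 9 tested regulators of the pathway, 4 were called higher and 0 lower, with a median of 0.21 that was 0.10 without hy5 replicate 1; without hy5 replicate 3 the calls were 3 higher and 1 lower. MYB28, the main activator of the aliphatic branch, had 64.3, 60.1 and 58.6 CPM in bbx202122, against 40.7, 38.7 and 38.2 CPM in hy5 (0.64 ± 0.07, adjusted p = 1.6e-05). MYB34, an activator of the indole branch, had 53.3, 50.6 and 51.3 CPM in bbx202122, against 33.2, 31.7 and 36.2 CPM in hy5 (0.62 ± 0.07, adjusted p = 2.6e-05). MYB29, a second aliphatic activator, was at 1.64, 1.62 and 1.66 CPM in bbx202122, against 0.0955, 0.469 and 0.189 CPM in hy5 (2.67 ± 0.37, adjusted p = 0.00011), where the lowest hy5 values rest on few reads. MYB51, another activator of the indole branch, was 0.25 higher on the log2 scale, a call lost with the DESeq2 test and without bbx202122 replicate 3 or hy5 replicate 1 or 3. MYC2, MYC3 and MYC4, partners of these MYB proteins, were not called. Genes for transport and breakdown of glucosinolates were split, with 2 of 9 called higher and 3 lower. NSP5, which steers breakdown products, was lower, with 121 ± 6.78 CPM in bbx202122 and 199 ± 26.3 CPM in hy5. ESP, which also does so, was lower, with 14.6 ± 0.288 CPM in bbx202122 and 22.9 ± 2.67 CPM in hy5, as was the myrosinase TGG2, with 80.2 ± 8.63 CPM in bbx202122 and 110.0 ± 10.4 CPM in hy5. The 2 calls for higher levels were lost, leaving 3 called, without bbx202122 replicate 2, hy5 replicate 1 or hy5 replicate 2, and the list median of -0.08 turned to 0.02 without bbx202122 replicate 1.

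Sulfate genes, which feed these compounds, showed both directions: 4 of 20 were called higher and 7 lower, with a median of -0.06 that turned to 0.01 with plain library sizes or FPKM. APK2, a kinase that makes the sulphate donor for the last glucosinolate step, had 24.9, 32.1 and 30.1 CPM in bbx202122, against 12.3, 11.3 and 13.1 CPM in hy5 (1.25 ± 0.10, adjusted p = 7.6e-07). SULTR1;1, a root sulphate transporter, had 1.95, 2.88 and 2.8 CPM in bbx202122, against 0.239, 0.751 and 0.754 CPM in hy5 (2.12 ± 0.30, adjusted p = 0.00013). The sulphur-deficiency genes BGLU28 and SDI1 were lower instead, BGLU28 with 6.32, 7.11 and 7.82 CPM in bbx202122, against 18.7, 19.6 and 18.6 CPM in hy5 and SDI1 with 10.7 ± 0.986 CPM in bbx202122 and 22.2 ± 3.64 CPM in hy5. All 4 genes had libraries that did not overlap.

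**Figure D2:**
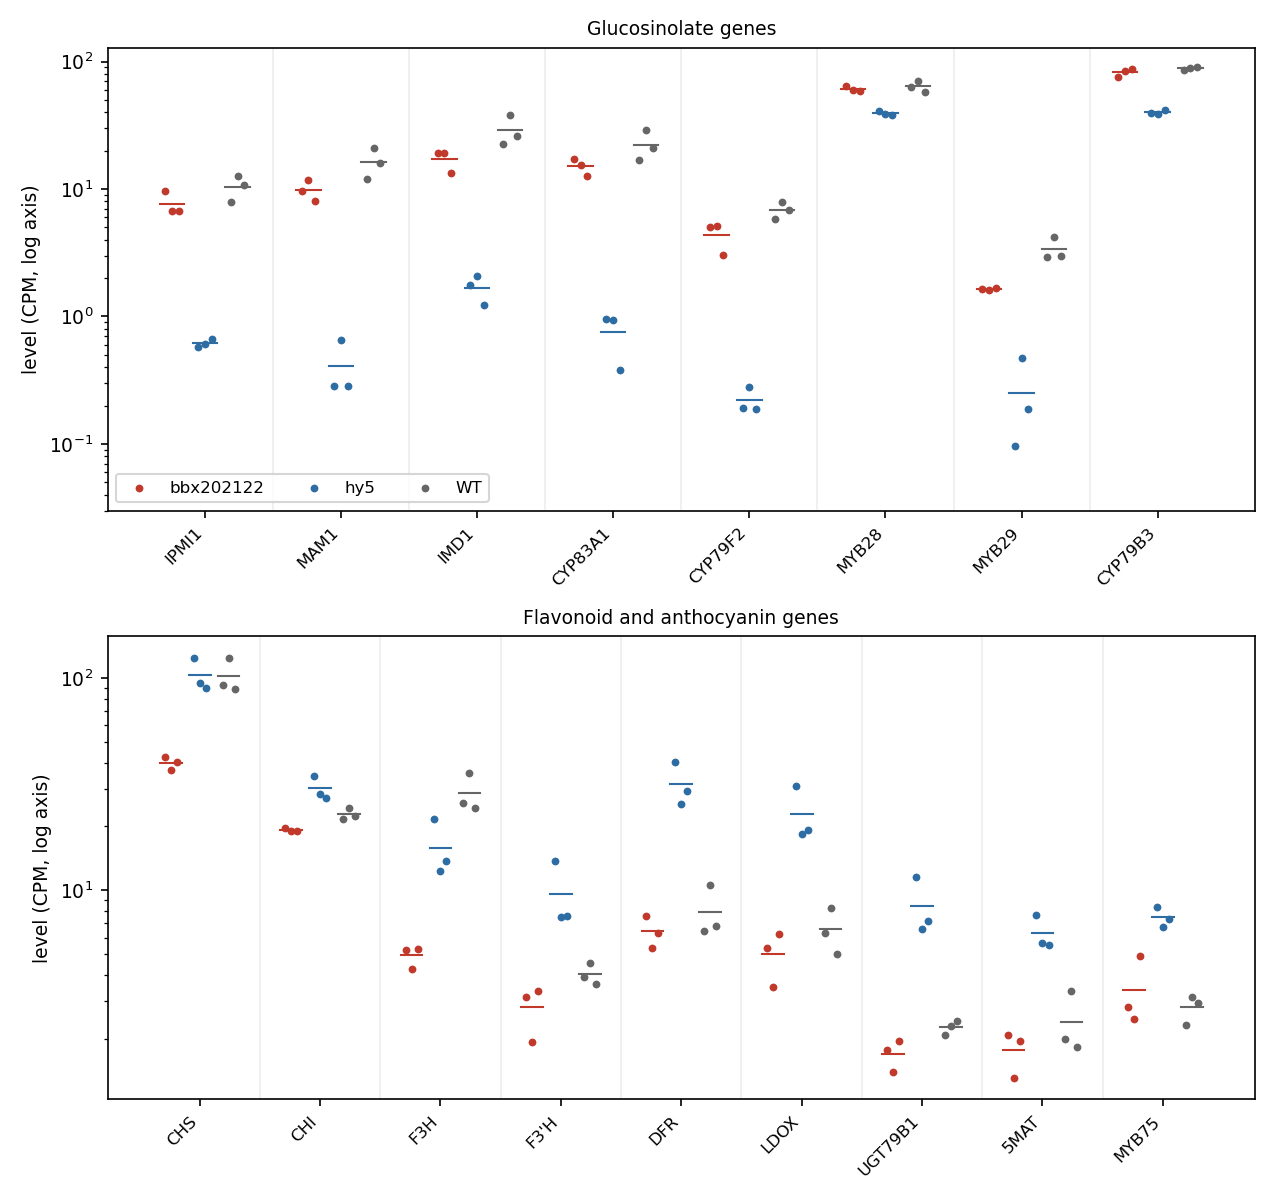
Points are single libraries and bars are means of 3, with levels in CPM on a log axis, for bbx202122, hy5 and WT. In the upper panel MAM1 and CYP83A1 lie between 8.03 and 17.3 CPM in bbx202122 and below 1 CPM in hy5; in the lower panel DFR and LDOX are highest in hy5.

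Flavonoid and anthocyanin genes went the opposite way and were lower in bbx202122. These enzymes convert phenylpropanoids into colourless flavonols and red anthocyanins, which screen light. Of 10 tested early flavonoid and flavonol genes, 8 were called lower and 0 higher, with a median of -0.65, and all 9 tested anthocyanin genes were called lower, with a median of -1.82 (-1.18 with FPKM). CHS, the entry enzyme chalcone synthase (AT5G13930, chr5:4488476-4490264), had 42.6, 36.9 and 40.3 CPM in bbx202122, against 125, 94.7 and 89.4 CPM in hy5 (-1.37 ± 0.13, adjusted p = 3.6e-06). F3H, a hydroxylase of the flavonoid core, had 5.26, 4.28 and 5.31 CPM in bbx202122, against 21.6, 12.3 and 13.8 CPM in hy5 (-1.68 ± 0.21, adjusted p = 4.9e-05). CHI, chalcone isomerase, had 19.6, 19.1 and 19.0 CPM in bbx202122, against 34.7, 28.5 and 27.3 CPM in hy5 (-0.65 ± 0.09, adjusted p = 7.5e-05). The groups did not overlap for any of the 3 genes. F3'H, which adds a hydroxyl group to the ring, was at 3.14, 1.94 and 3.36 CPM in bbx202122, against 13.7, 7.51 and 7.54 CPM in hy5 (-1.76 ± 0.24, adjusted p = 9.3e-05).

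DFR, the first enzyme of the anthocyanin branch (AT5G42800, chr5:17164093-17166032), had 7.56, 5.36 and 6.33 CPM in bbx202122, against 40.4, 25.5 and 29.5 CPM in hy5 and 6.42, 10.5 and 6.82 CPM in WT, a 4.95-fold higher level in hy5 than in bbx202122 (-2.31 ± 0.19, adjusted p = 5.7e-07). LDOX, which acts after it, had 5.35, 3.51 and 6.2 CPM in bbx202122, against 31.2, 18.5 and 19.2 CPM in hy5 (-2.19 ± 0.22, adjusted p = 6.3e-06). UGT79B1, which adds a sugar to anthocyanins, had 1.71 ± 0.285 CPM in bbx202122 and 8.45 ± 2.75 CPM in hy5 (-2.30 ± 0.22, adjusted p = 2.9e-06). 5MAT, which adds a malonyl group, had 1.78 ± 0.415 CPM in bbx202122 and 6.29 ± 1.21 CPM in hy5 (-1.82 ± 0.22, adjusted p = 4.3e-05). For these 4 genes every hy5 library was above every bbx202122 library, and the WT means of 7.93 CPM for DFR and 6.55 CPM for LDOX were close to bbx202122. For F3H the WT mean of 28.6 CPM was above both mutants, and for CHS the WT mean of 102 CPM lay near hy5.

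The regulators of these enzymes did not move as 1 group. Of 15 tested, 2 were called higher and 3 lower (4 and 1 with plain library sizes or FPKM), with a median of -0.06; 3 calls were left without bbx202122 replicate 1, hy5 replicate 2 or hy5 replicate 3, and the median changed sign with plain library sizes, with FPKM, and without bbx202122 replicate 3 or hy5 replicate 1. MYB75, an activator of the anthocyanin branch, had 2.83, 2.48 and 4.89 CPM in bbx202122, against 8.36, 6.71 and 7.35 CPM in hy5 (-1.13 ± 0.20, adjusted p = 0.00085). MYB12, an activator of flavonol genes, was higher in bbx202122 at 0.619, 0.585 and 0.51 CPM in bbx202122, against 0.239, 0.235 and 0.0943 CPM in hy5 (1.57 ± 0.39, adjusted p = 0.0093), with both mutants far below the 3.56, 3.62 and 2.96 CPM in WT. MYB4, a repressor of phenylpropanoid genes, had 28.4 ± 2.15 CPM in bbx202122 and 23.7 ± 1.51 CPM in hy5 and MYBL2, a repressor of anthocyanin genes, 21.4 ± 1.24 CPM in bbx202122 and 26.0 ± 1.66 CPM in hy5. Both calls were lost without bbx202122 replicate 1, hy5 replicate 2 or hy5 replicate 3, that of MYB4 also without bbx202122 replicate 2, and that of MYBL2 also without bbx202122 replicate 3 and with plain library sizes or FPKM. Upstream of the pathway the 8 general phenylpropanoid genes had 1 call in each direction, and 6 of them had intervals within 1.5-fold. The median of 0.07 of that list turned to -0.03 without bbx202122 replicate 2.

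Genes of iron acquisition were higher in bbx202122, 19 of 25 tested and 0 lower, with a median of 0.85 (0.54 with FPKM). Plants that sense low iron raise a set of basic helix-loop-helix factors, which turn on reduction and uptake of iron at the root surface, and nicotianamine synthases, whose product carries iron inside the plant. BHLH38, 1 of these factors (AT3G56970), had 8.58, 8.28 and 11.3 CPM in bbx202122, against 3.2, 2.16 and 3.06 CPM in hy5 (1.74 ± 0.17, adjusted p = 5.6e-06); its tandem neighbour BHLH39 is similar in sequence, so reads may be shared between them. NAS1, a nicotianamine synthase, had 33.8, 39.7 and 29.2 CPM in bbx202122, against 12.8, 13.9 and 11.3 CPM in hy5 (1.43 ± 0.11, adjusted p = 2.3e-07). The groups did not overlap, and the WT libraries had 39.6, 43.4 and 43.8 CPM. F6'H1 makes a coumarin that mobilises iron and had 21.0, 27.7 and 28.2 CPM in bbx202122, against 11.9, 12.4 and 11.0 CPM in hy5 (1.12 ± 0.10, adjusted p = 2.0e-06). CYP82C4, which modifies such coumarins, had 5.7, 5.0 and 4.12 CPM in bbx202122, against 1.58, 1.17 and 0.896 CPM in hy5 (2.02 ± 0.20, adjusted p = 5.6e-06). Named after their values were seen, the transporter IRT1 had 35.5, 31.5 and 25.1 CPM in bbx202122, against 14.8, 15.3 and 10.2 CPM in hy5, the reductase FRO2 had 11.6, 8.46 and 8.03 CPM in bbx202122, against 4.87, 5.44 and 3.02 CPM in hy5, and FIT, the factor that controls both, had 9.82, 11.1 and 11.3 CPM in bbx202122, against 8.12, 7.88 and 8.81 CPM in hy5 (0.38 ± 0.09, adjusted p = 0.0078). Ferritin FER1, which stores iron and was named in the same way, was also higher, 196 ± 21.4 CPM in bbx202122 and 149.8 ± 12.2 CPM in hy5.

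Root hair markers moved with these root genes. Of 17 tested, 10 were called higher and 1 lower, with a median of 0.60, and their summed level was 259 to 305 CPM in bbx202122, 197 to 255 CPM in hy5 and 504 to 523 CPM in WT, with no marker at 0 counts in either mutant. RHS13, RHS19, EXPA18 and RHS10, all members of this list, had log2 fold changes of 0.91, 0.99, 0.87 and 0.60. Of 10 markers of inner root tissue and root tip, 0 were called higher and 2 lower; there were 0 calls of either direction with plain library sizes, with FPKM, without bbx202122 replicate 1 or without bbx202122 replicate 3, and 1 without any single hy5 replicate. Their summed level was 271 to 292 CPM in bbx202122 and 307 to 309 CPM in hy5. The part of root hair abundance in the iron genes was not tested.

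Type-A response regulators, early targets and feedback inhibitors of cytokinin signalling, were higher in bbx202122: 8 of 9 tested were called and 0 were lower, with a median of 0.52. ARR7 had 10.7, 9.63 and 9.48 CPM in bbx202122, against 5.35, 5.16 and 4.81 CPM in hy5 (0.96 ± 0.10, adjusted p = 5.3e-06). ARR16 had 4.16, 4.55 and 3.95 CPM in bbx202122, against 1.81, 1.92 and 1.74 CPM in hy5, a 2.3-fold difference (adjusted p = 3.4e-05). ARR4 had 71.0, 62.4 and 63.4 CPM in bbx202122, against 41.4, 43.2 and 43.6 CPM in hy5 (0.62 ± 0.08, adjusted p = 7.6e-05). ARR9 had 40.6, 41.9 and 42.1 CPM in bbx202122, against 32.8, 31.1 and 30.6 CPM in hy5 (0.40 ± 0.06, adjusted p = 0.00023). For each of the 4 genes the groups were apart and the WT mean, 14.1, 4.85, 78.7 and 45.8 CPM, was above both mutants.

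**Figure D3:**
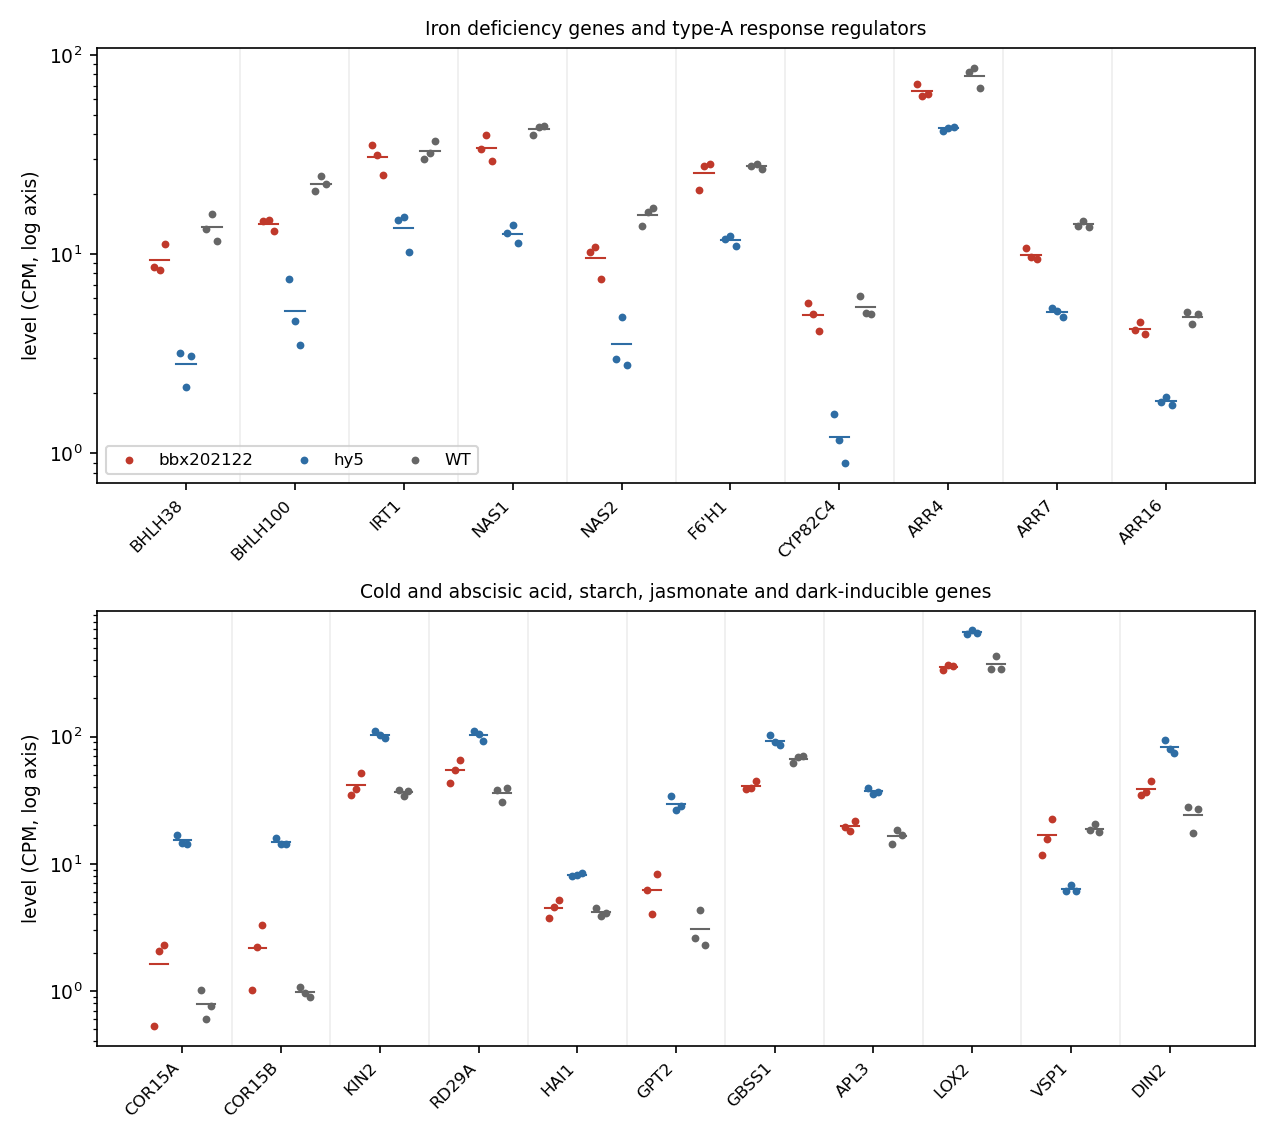
Points are single libraries and bars are means of 3, with levels in CPM on a log axis, for bbx202122, hy5 and WT. The iron and ARR genes of the upper panel are higher in bbx202122 than in hy5 in every library, and the genes of the lower panel, apart from VSP1, are lower.

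Abscisic acid and cold genes were lower in bbx202122, 14 of 22 tested and 0 higher, with a median of -0.41 (-0.66 without bbx202122 replicate 3). Abscisic acid is the hormone of drought and seed dormancy, and the list holds its marker genes and the protein phosphatases that its signalling induces. COR15A and COR15B, which protect chloroplast membranes in cold, are tandem copies. COR15A had 0.531, 2.07 and 2.29 CPM in bbx202122, against 16.9, 14.5 and 14.3 CPM in hy5 (-3.21 ± 0.25, adjusted p = 3.4e-07). COR15B had 1.02, 2.21 and 3.31 CPM in bbx202122, against 16.0, 14.4 and 14.3 CPM in hy5 (-2.76 ± 0.22, adjusted p = 3.7e-07). Every hy5 library was above every bbx202122 library, and WT had 1.02, 0.596 and 0.763 CPM of COR15A; the copies are similar, so reads may be shared. KIN2 had 34.8, 39.0 and 52.2 CPM in bbx202122, against 111, 102 and 97.1 CPM in hy5 (-1.30 ± 0.11, adjusted p = 7.4e-07) and RD29A 42.9, 54.7 and 65.7 CPM in bbx202122, against 111, 106 and 93.0 CPM in hy5 (-0.92 ± 0.12, adjusted p = 8.2e-05), without overlap. HAI1, a phosphatase of the pathway, had 4.5 ± 0.714 CPM in bbx202122 and 8.18 ± 0.191 CPM in hy5. RAB18 and RD29B, usual markers of the hormone, were not called, with 147 ± 55.2 CPM in bbx202122 and 179 ± 21.9 CPM in hy5 for RAB18 and 97.8 ± 32.9 CPM in bbx202122 and 126 ± 8.46 CPM in hy5 for RD29B.

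Seed storage genes varied beside them. Of 13 tested, 6 were called lower in bbx202122 and 0 higher, with a median of -0.59 and a mean of -1.87; 10 were called without bbx202122 replicate 3, with a median of -1.11, and 3 with the stricter count filter, with a median of -0.36. The summed level of the 15 genes was 45.8 to 88.9 CPM in bbx202122, with replicate 3 the highest, 98.2 to 140 CPM in hy5 and 61.5 to 126 CPM in WT. CRC, a cruciferin, had 1.59, 0.225 and 0.722 CPM in bbx202122, against 26.1, 17.8 and 20.6 CPM in hy5 (-4.66 ± 0.95, adjusted p = 0.0026), and its WT libraries were uneven at 0.668, 0.459 and 20.5 CPM. The albumins SESA1, SESA2 and SESA3 are close copies whose reads may be split between them. The part of residual seed transcripts in the abscisic acid genes was not tested.

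Starch and plastid sugar genes were lower in bbx202122 in 12 of 17 tested cases and higher in 1, with a median of -0.36. The mean was -0.02, since the single gene called higher had the largest fitted increase among genes of at least 5 CPM. That gene was QQS, a short gene found in Arabidopsis only and linked to starch content, with 8.93, 8.06 and 6.46 CPM in bbx202122, against 0.0477, 0 and 0.0943 CPM in hy5 and 0.668, 1.15 and 1.03 CPM in WT. It held 533 counts over the 3 bbx202122 libraries, against 3 in hy5, a ratio of 165 with a 95% exact binomial interval of 56.1 to 802 that covers counting error only. GBSS1, the amylose-forming starch synthase, had 38.8, 39.7 and 45.1 CPM in bbx202122, against 104, 90.0 and 85.4 CPM in hy5 (-1.17 ± 0.08, adjusted p = 8.8e-08). GPT2, a plastid carrier of glucose 6-phosphate, had 6.19, 4.05 and 8.24 CPM in bbx202122, against 34.1, 26.6 and 28.4 CPM in hy5 (-2.26 ± 0.19, adjusted p = 7.5e-07). APL3, a subunit of the enzyme that supplies ADP-glucose, had 19.4, 18.1 and 21.6 CPM in bbx202122, against 39.1, 35.5 and 36.5 CPM in hy5 (-0.91 ± 0.09, adjusted p = 3.2e-06). The hy5 libraries were the highest of all 9 for these 3 genes. Dark-inducible and sugar starvation genes pointed the same way, with 5 of 14 called lower and 0 higher and a median of -0.21; 3 were called without hy5 replicate 2. DIN2 had 34.7, 37.0 and 45.1 CPM in bbx202122, against 93.9, 79.8 and 74.2 CPM in hy5 (-1.09 ± 0.14, adjusted p = 4.7e-05).

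Wax genes were lower in bbx202122 in 7 of 11 tested cases and higher in 0, with a median of -0.35. CER1 and CER3, which together make the alkanes of the cuticle, were both lower. CER1 had 10.7, 10.8 and 10.9 CPM in bbx202122, against 16.1, 14.7 and 16.4 CPM in hy5 (-0.54 ± 0.07, adjusted p = 0.00012). CER3 had 81.4, 91.2 and 86.9 CPM in bbx202122, against 107, 119 and 122 CPM in hy5 (-0.42 ± 0.07, adjusted p = 0.00062). KCS6, a fatty acid elongase, had 491, 576 and 487 CPM in bbx202122, against 645, 664 and 670.0 CPM in hy5, and MYB96, a wax regulator, had 25.3 ± 2.29 CPM in bbx202122 and 33.5 ± 1.28 CPM in hy5. For these 4 genes the libraries did not overlap and the fold was under 1.5.

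Defence hormone genes were mixed. Of 13 jasmonate genes, 5 were called lower and 1 higher. LOX2, the lipoxygenase that begins jasmonate synthesis in leaves, had 337, 365 and 359.6 CPM in bbx202122, against 639.8, 685 and 657 CPM in hy5 (-0.90 ± 0.08, adjusted p = 1.9e-06). ST2A, which adds sulphate to a hydroxylated jasmonate, had 38.6, 48.8 and 45.9 CPM in bbx202122, against 74.9, 75.0 and 67.0 CPM in hy5. VSP1, a vegetative storage protein, was higher, with 11.8, 15.8 and 22.7 CPM in bbx202122, against 6.06, 6.85 and 6.13 CPM in hy5 (adjusted p = 7.2e-05). Of 8 salicylic acid and pathogen genes, 3 were called higher and 1 lower. PR1, the standard marker of that response, was the 1 lower, with 0.221, 0.27 and 0.51 CPM in bbx202122, against 2.2, 3.38 and 3.02 CPM in hy5 (-3.07 ± 0.30, adjusted p = 3.6e-06), while EDS5, a transporter needed to make salicylic acid, was higher, with 11.8, 12.7 and 12.3 CPM in bbx202122, against 6.45, 8.07 and 7.87 CPM in hy5 (0.72 ± 0.09, adjusted p = 7.2e-05).

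Auxin response, ethylene and brassinosteroid genes had calls for lower levels and none for higher ones, with small medians. Of 33 auxin response genes, 11 were called lower and 0 higher, with a median of -0.14 (-0.07 with plain library sizes, -0.09 with FPKM); the count was 5 with plain library sizes, with FPKM, and without hy5 replicate 1 or 2, and 7 without bbx202122 replicate 1 or 3. IAA1, an early auxin gene, had 14.1, 15.9 and 13.8 CPM in bbx202122, against 23.5, 22.8 and 21.5 CPM in hy5 (-0.63 ± 0.10, adjusted p = 0.00052). Of 15 auxin synthesis and transport genes, 2 were called higher and 6 lower; LAX1, an uptake carrier, had 85.0 ± 5.71 CPM in bbx202122 and 123 ± 3.51 CPM in hy5 and PIN4, an efflux carrier, 126 ± 6.37 CPM in bbx202122 and 174 ± 1.36 CPM in hy5. Of 13 ethylene genes, 8 were called lower and 0 higher, with a median of -0.18 (-0.11 with plain library sizes or FPKM); the count was 4 with plain library sizes, 1 with FPKM, and between 3 and 5 without bbx202122 replicate 1 or 3 or any hy5 replicate. Of 12 brassinosteroid genes, 5 were called lower and 0 higher, or 3 with plain library sizes, with FPKM or without hy5 replicate 2; CPD, an enzyme of synthesis, had 101 ± 4.34 CPM in bbx202122 and 134 ± 1.84 CPM in hy5. Of 18 gibberellin genes, 3 were called higher and 1 lower, or 3 and 0 with plain library sizes or FPKM; 22.2% of that list was called, near the 23.0% over all genes.

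Cell wall loosening and light signalling genes were called to differing extents. Called members made up 42.1% of the wall list and 38.5% of the UV-B and high-light list, against 23.0% over all genes. The share was 26.7% for phytochrome-interacting factor and shade genes and 21.1% for photoreceptor and COP1-complex genes. Both were near 23.0%, so the counts of these 2 lists do not set them apart. Of 19 xyloglucan-modifying and expansin genes, 1 was called higher and 7 lower, with 5 calls left without hy5 replicate 1; XTH19 had 48.6 ± 2.51 CPM in bbx202122 and 71.8 ± 4.01 CPM in hy5 and EXPA8 114 ± 11.4 CPM in bbx202122 and 156 ± 4.3 CPM in hy5. Of 15 genes of phytochrome-interacting factors and shade responses, 1 was called higher and 3 lower. HFR1, which restrains elongation, had 7.83, 8.19 and 8.16 CPM in bbx202122, against 14.8, 13.6 and 12.6 CPM in hy5 (-0.76 ± 0.10, adjusted p = 5.6e-05) and PIF3, which promotes it, 39.5, 37.2 and 40.7 CPM in bbx202122, against 55.7, 53.9 and 55.8 CPM in hy5 (-0.49 ± 0.07, adjusted p = 0.00026). Of 19 photoreceptor and COP1-complex genes, 18 had intervals within 1.5-fold; 1 was called higher and 3 lower, but 2 in all without hy5 replicate 2 or 3, and with plain library sizes or FPKM 2 and 1 were called, none of them lower, with medians of 0.02 and 0.03 in place of -0.05. Among 13 UV-B and high-light genes, 4 were called lower and 1 higher, and the median of 0.02 lay between -0.09 and -0.01 in 5 alternatives, with the stricter filter, with the 6 mutant libraries alone and without bbx202122 replicate 1 or 2 or hy5 replicate 1. ELIP1, an early light-inducible protein, had 0.884, 1.17 and 1.49 CPM in bbx202122, against 4.25, 3.1 and 2.78 CPM in hy5 (-1.51 ± 0.23, adjusted p = 0.00029) and SIG5, a plastid sigma factor, 15.8, 17.4 and 15.8 CPM in bbx202122, against 26.0, 23.0 and 22.6 CPM in hy5 (-0.55 ± 0.08, adjusted p = 0.00012).

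Clock genes differed little between the mutants. All 27 tested members had intervals within 1.5-fold, although 4 were called higher and 5 lower (5 and 1 with plain library sizes or FPKM). LHY, a morning clock gene, had 65.3, 65.2 and 62.3 CPM in bbx202122, against 47.7, 46.4 and 49.9 CPM in hy5 and 145, 145 and 167 CPM in WT, so that the mutants differed by 1.34-fold while both were far below WT. LNK2 had 132 ± 4.61 CPM in bbx202122 and 103 ± 1.33 CPM in hy5 and 197 CPM in WT. The count of 9 clock calls was lower in every alternative but that with DESeq2 size factors. It was 5 with the DESeq2 test and without bbx202122 replicate 1, hy5 replicate 1 or hy5 replicate 3, and 3 without hy5 replicate 2.

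Nuclear genes of photosynthesis were nearly level. Of 21 antenna genes, 20 had intervals within 1.5-fold, and 2 were called higher and 1 lower (3 and 0 with plain library sizes or FPKM); the count fell to 0 or 1 without bbx202122 replicate 3 or any hy5 replicate, and the median of -0.03 became 0.04 with plain library sizes or FPKM. LHCB1.1 and LHCB1.3 belong to near-identical copies, so calls for single members are uncertain. Of 36 photosystem, carrier and Rubisco genes, 35 had intervals within 1.5-fold, with 1 called higher and 3 lower. That count was 2 with FPKM and without bbx202122 replicate 1 or hy5 replicate 2 or 3, and 8 with the DESeq2 test or without bbx202122 replicate 2. Of 33 chlorophyll and heme genes, 32 were within 1.5-fold, 7 were called higher and 4 lower (9 and 2 with plain library sizes, 11 and 2 with FPKM), and 5 to 7 calls were left without bbx202122 replicate 1 or hy5 replicate 1 or 2. NYC1, which starts chlorophyll b breakdown, had 181, 193 and 193 CPM in bbx202122, against 233, 259 and 246 CPM in hy5 (-0.38 ± 0.06, adjusted p = 0.0003). GSA1, an early enzyme of synthesis, had 109.7, 118 and 111 CPM in bbx202122, against 94.8, 95.3 and 94.9 CPM in hy5 (0.25 ± 0.05, adjusted p = 0.0028). All 9 greening regulators and sigma factors were within 1.5-fold, with 4 called lower; with plain library sizes or FPKM 1 was called higher and 2 lower, and the median turned from -0.05 to 0.02. GLK1, which drives chloroplast genes of the nucleus, had 114 ± 5.35 CPM in bbx202122 and 132 ± 1.28 CPM in hy5, a call lost with these 2 scalings.

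Transcripts encoded in the chloroplast genome, listed by genome and not by function, were mostly higher in bbx202122. Of 88 tested, 74 were called higher in bbx202122 and 0 lower, and all 88 had a positive log2 fold change, with a median of 0.88. With a replicate left out the count lay between 56, without hy5 replicate 2, and 83, without hy5 replicate 1. The median was 0.71 and 1.12 in these 2 cases. Chloroplast-encoded transcripts took 0.493, 0.406 and 0.399% of the counts in bbx202122, 0.326, 0.191 and 0.23% in hy5 and 0.226 ± 0.0145% in WT (SD, n = 3). The means were 0.432 ± 0.0521% in bbx202122 and 0.249 ± 0.0695% in hy5 (SD, n = 3 each), with no overlap, and the exact permutation test over the 6 libraries, two-sided, gave p = 0.1, the smallest that 3 against 3 can give. Chloroplast RNA mostly lacks long poly(A) tails, so libraries made with oligo(dT) hold a small share of it, and the values here were measured after that selection. Among 41 tested mitochondrial transcripts 3 were called higher and 0 lower, and 5 or 6 with plain library sizes, FPKM, without bbx202122 replicate 2 or without hy5 replicate 1; their share of counts was 0.0234% in bbx202122 and 0.0172% in hy5, exact permutation p = 0.2.

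**Figure D4:**
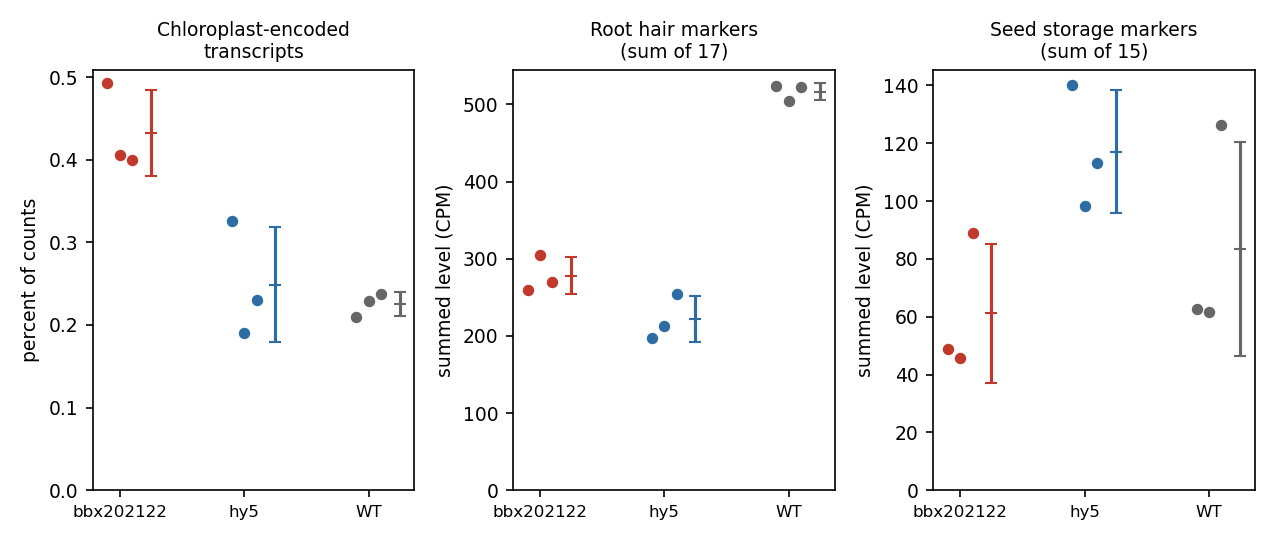
Points are single libraries and the bars beside them give mean ± SD (n = 3) for bbx202122, hy5 and WT: chloroplast-encoded transcripts as a percent of counts, and summed CPM of 17 root hair and 15 seed storage genes. The chloroplast share is 0.432% in bbx202122 and 0.249% in hy5, and the root hair sum is highest in WT.

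A separate group of transcripts was present in hy5 and close to absent in bbx202122 and WT. With at most 3 counts over the 3 libraries of 1 mutant and a mean of at least 5 CPM in the other, 1 gene, QQS, was present in bbx202122 and 24 in hy5 (5.11 to 124 CPM). Of the 24, 22 had 0 counts in bbx202122 and the other 2 had 1 to 3, and each had at most 5 counts over the WT libraries. All 24 are annotated as protein coding, 17 with a RefSeq product that is uncharacterized and 2 with a transposase. Chromosome 1 holds 13 of them and chromosome 4 holds 9, beside 5462 and 3161 of the 20751 genes tested. AT1G40390 (chr1:15432576-15434674, a DNAse I-like protein) had 0.0884, 0 and 0 CPM in bbx202122, against 138, 116 and 119 CPM in hy5 and 0 in WT, a ratio of hy5 to bbx202122 of 4236 with a 95% exact binomial interval of 1172 to 34984 that covers counting error only, since reads are not independent molecules. AT4G16215 (chr4:9179244-9179833) had 0 counts in bbx202122, against 112, 107 and 105 CPM in hy5, so it was at least 2457-fold higher in hy5, taking 3 counts over the bbx202122 libraries as the floor. AT1G23915 (chr1:8457659-8458946) and AT1G36085 (chr1:13486004-13486920, a mutator-like transposase) had 0 counts in bbx202122, against 41.5, 42.6 and 41.2 CPM and 35.0, 29.9 and 27.6 CPM in hy5, at least 952-fold and 703-fold higher in hy5. AT1G43815, AT4G08593, AT4G06643, AT1G47657, AT4G04265 and AT1G25025 followed, each at 0 in every bbx202122 library and between 16.6 and 29.7 CPM in hy5.

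Several of these levels are uncertain as single genes. AT1G25025 and AT1G25112 had the same estimated counts in every library and cannot be told apart. LpxC3 (chr1:8804489-8806361), the 1 gene of the 24 with a symbol, held all of its counts in hy5 replicate 2, whereas the other 23 had counts in every hy5 library and were called. AT1G47657 and AT1G47660 overlap on opposite strands, and the strand used in counting is not stated. Other genes had a few counts more than the limit: AT2G05915 had 0.177, 0.18 and 0.127 CPM in bbx202122, against 68.7, 64.0 and 65.0 CPM in hy5, and OFP9, a member of the OVATE family of growth regulators, had 0.575, 0 and 0.297 CPM in bbx202122, against 89.0, 84.0 and 75.5 CPM in hy5. These 2 were named after their values were seen.

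**Figure D5:**
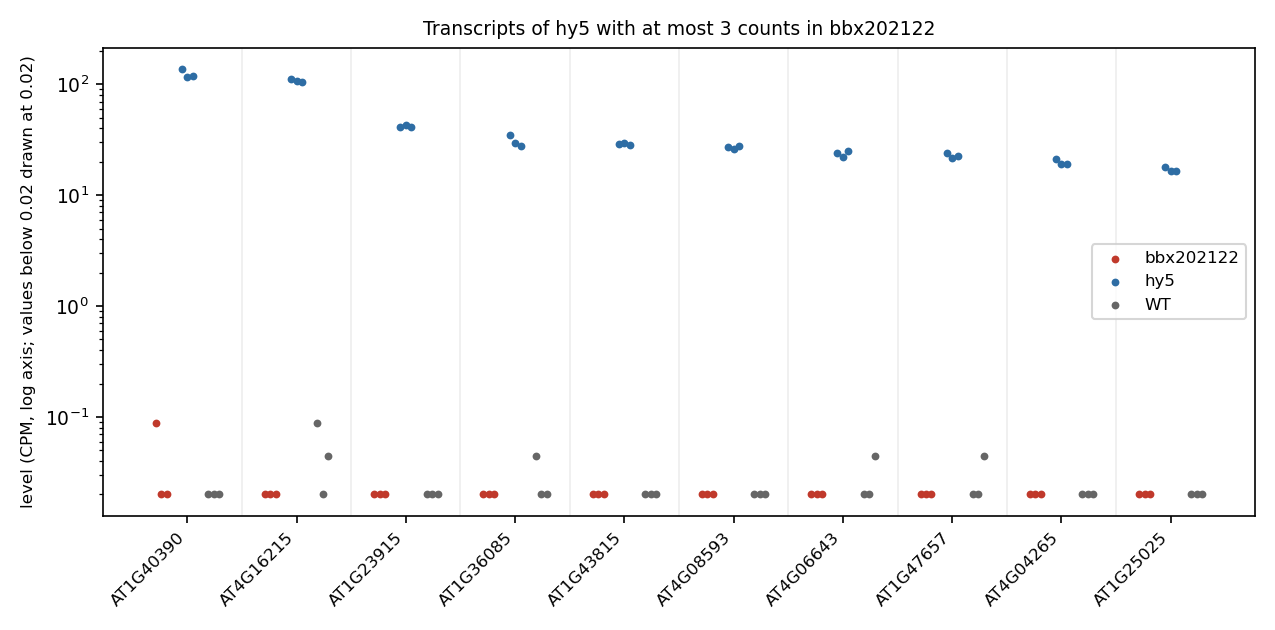
Points are single libraries with levels in CPM on a log axis, for the 10 transcripts most abundant in hy5 among those with at most 3 counts in bbx202122; values below 0.02 CPM are drawn at 0.02. All 10 genes lie at or near 0 in bbx202122 and WT, while AT1G40390 lies above 115 CPM in hy5.

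Among the largest increases in bbx202122, 4 genes outside the lists were low in hy5, and 3 of them stood near WT in bbx202122. AT5G42280, a protein with a C1 domain rich in cysteine and histidine, had 8.05, 6.75 and 6.54 CPM in bbx202122, against 0.143, 0.0469 and 0 CPM in hy5 and 6.68, 7.34 and 7.45 CPM in WT. CSLA03, a glucomannan synthase of the cell wall (chr1:8332862-8336414), had 40.8, 40.8 and 37.1 CPM in bbx202122, against 3.1, 3.8 and 3.06 CPM in hy5 and 39.7, 36.2 and 38.2 CPM in WT, an 11.9-fold difference (3.57 ± 0.09, adjusted p = 8.7e-13). AT3G09160, an RNA-binding protein, had 6.94, 4.77 and 5.4 CPM in bbx202122, against 0.239, 0.657 and 0.566 CPM in hy5, and AT5G26270, with an uncharacterized product, had 30.7, 29.7 and 22.9 CPM in bbx202122, against 2.77, 2.35 and 3.06 CPM in hy5 and 40.0, 43.1 and 42.7 CPM in WT. Libraries without overlap were a condition for a place among these largest increases. Calls of either direction were spread over chromosomes 1 to 5, at 22.4, 22.5, 22.6, 24.4 and 22.5% of the tested genes. With a fold of at least 2 the shares were 3.2, 2.84, 2.71, 4.05 and 2.92%. Those of at least 2-fold and lower in bbx202122 numbered 70, 25, 27, 44 and 33, of 5462, 3103, 4058, 3161 and 4827 genes tested.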

How the data were processed

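The authors' processing used HISAT, Bowtie2 2.2.5, RSEM 1.2.12 and the build TAIR10, per the submitters' processing notes; their order, roles and strand setting are not stated in the sources. The deposited files hold, per library and gene, an expected count as estimated by the authors and not normalised, and FPKM values scaled by the authors to gene length and library size. Genes that a file does not list count as 0 there.

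Expected counts of the 24640 listed genes were rounded and passed to edgeR 4.0.16 (R 4.3.3) with TMM scaling and filterByExpr by genotype, which kept 20751 genes. Each genotype had 1 mean over all 9 libraries, leaving 6 residual degrees of freedom, and the difference of bbx202122 and hy5 was taken from this fit by the two-sided quasi-likelihood F test with Benjamini-Hochberg adjustment; a gene was called at an adjusted p under 0.05. Fold changes are bbx202122 over hy5 on the log2 scale ± SE, from 3 libraries against 3. CPM values use TMM-scaled library sizes, and means are ± SD (n = 3). In data simulated for this comparison over 20633 genes, changes were placed in 100 genes at 1.5-fold, 50 at 2-fold and 50 at 4-fold. Genes with few expected counts were not among them. The test recovered 81% of 1.5-fold and 100% of 2-fold and 4-fold changes, and 9.5% of its calls were false. Far fewer genes were changed than were called in the measured data, so these shares may differ there.

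Members and gene lists were chosen with earlier results of these data known, and a list is described by its counts and median. Named genes are the mutated genes and HYH; the 10 largest changes each way among called genes that averaged 5 CPM or more in the higher mutant without overlap; per list, the called members of lowest adjusted p, at most 4; and the 10 most abundant nearly absent transcripts. Other names were chosen after values were seen. Some genes that the rule names are not reported here. Replicates differed by more than counting noise. Annotation matched 24436 genes by identifier to TAIR10.1, from whose genome the 250-base windows before gene starts were read. Alternatives used DESeq2 1.42.0 and limma 3.58.1 (on log2 of FPKM plus 1), other filters and scalings, and each replicate left out.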

Additional observations from a re-analysis of the deposited data

How the results depend on the processing

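Of 191 named genes followed through 15 alternatives, 190 were called, 36 lost the call in at least 1 alternative (25 of them in at least 1 that keeps every mutant library) and 0 changed direction. Most of these genes were picked for large changes or low adjusted p-values, so their stability does not stand for that of all 4773 calls. Named genes that an alternative left out were not tested there and could not lose the call. With the stricter count filter 178 were unchanged and 1 lost the call, and the rest were left out. With nuclear genes alone 184 were unchanged and 0 lost the call, and the rest were left out. HY5 lost its call with plain library sizes, the DESeq2 test, the 6 mutant libraries alone, the replicate block and FPKM. The calls lower in bbx202122 numbered 2263, but 1427 with plain library sizes and 1296 with FPKM and limma, and calls of at least 2-fold numbered 668, but 288 with FPKM and limma. All calls numbered 4773, between 3916 with the DESeq2 test and 5183 with plain library sizes, and 3332 to 4276 with a replicate left out, fewest without hy5 replicate 2. The difference in chloroplast share was 0.184 percentage points of counts and 0.400 of summed FPKM. The labels' replicate numbers name no shared culture or day, so they were not taken to pair the samples. Deviations of same-numbered libraries correlated at 0.227, 0.127 and 0.0404, and those of differently numbered libraries at between -0.185 and 0.0655. These few values do not settle whether the samples were paired. A replicate block gave 4445 calls, with 5 of the clock list in place of 9 and 1 of the inner root list in place of 2. Totals of about 22 in units of 1e6 counts leave genes under 1 CPM with few counts.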

Other observations

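Genes of the stomatal lineage and of the cell cycle were called at the rate of all genes. The shares were 23.5% of the stomatal list and 22.7% of the cell cycle list against 23.0%, so their counts do not set them apart. Of 17 genes of the stomatal lineage, 4 were called higher in bbx202122 and 0 lower, with a median log2 fold change of 0.18, against 0.01 over all genes. SPCH, the factor that starts the lineage, had 7.96, 9.27 and 6.84 CPM in bbx202122, against 5.06, 5.87 and 6.13 CPM in hy5 (0.49 ± 0.12, adjusted p = 0.0087). EPF2, a peptide that limits the number of stomata, had 2.34, 2.07 and 2.0 CPM in bbx202122, against 0.955, 0.938 and 1.56 CPM in hy5 (0.89 ± 0.22, adjusted p = 0.0092), a call lost without hy5 replicate 2. The stomatal gene TMM had 11.0 ± 0.459 CPM in bbx202122 and 7.58 ± 0.237 CPM in hy5 and POLAR had 4.28 ± 0.195 CPM in bbx202122 and 2.58 ± 0.129 CPM in hy5. The summed level of the 17 genes was 329 to 359 CPM in bbx202122 and 323 to 340 CPM in hy5, ranges that overlap. Of 22 cell cycle genes, 5 were called higher and 0 lower, while the list median, close to 0, changed sign in several alternatives. PCNA1, a clamp of DNA replication, had 17.2, 17.3 and 17.3 CPM in bbx202122, against 13.0, 12.1 and 12.3 CPM in hy5 (0.47 ± 0.07, adjusted p = 0.00038), and the D-type cyclins CYCD3;1 and CYCD3;2 had 28.4 ± 1.86 CPM in bbx202122 and 22.9 ± 1.35 CPM in hy5 for CYCD3;1 and 31.8 ± 3.09 CPM in bbx202122 and 23.8 ± 0.456 CPM in hy5 for CYCD3;2.

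Genes for other nutrients were split. Of 12 copper and superoxide dismutase genes, 2 were called higher and 3 lower, with 3 calls without hy5 replicate 2 and a median of -0.02 that turned to 0.04 with plain library sizes. CCH, a copper chaperone, had 184, 179.7 and 179.7 CPM in bbx202122, against 123, 137 and 139 CPM in hy5 (0.44 ± 0.06, adjusted p = 6.1e-05). CSD2, the plastid superoxide dismutase, had 78.8, 92.1 and 74.3 CPM in bbx202122, against 124, 106 and 114 CPM in hy5 (-0.49 ± 0.09, adjusted p = 0.0014). Of 10 nitrate genes, 2 were called higher and 3 lower; 3 or fewer were called with FPKM or without bbx202122 replicate 1, hy5 replicate 2 or hy5 replicate 3. GLU1, the main ferredoxin-dependent glutamate synthase, had 1021.7, 1096.2 and 1099.3 CPM in bbx202122, against 1316.3, 1487.4 and 1447.2 CPM in hy5. Of 12 lignin and sinapate genes, 4 were called higher and 2 lower, UGT84A2, a sinapate glucosyltransferase, at 35.8 ± 3.2 CPM in bbx202122 and 49.9 ± 3.53 CPM in hy5 and CAD4, which makes lignin alcohols, at 120.1 ± 1.48 CPM in bbx202122 and 97.0 ± 3.67 CPM in hy5. Of 17 carotenoid genes, 0 were called higher and 3 lower (1 and 2 with plain library sizes or FPKM), or 6 lower with the DESeq2 test; CCD4, a cleavage enzyme, had 27.3, 31.3 and 29.2 CPM in bbx202122, against 43.8, 39.3 and 39.5 CPM in hy5 (-0.48 ± 0.07, adjusted p = 0.00014). Of 7 common reference genes, 0 were called higher and 2 lower: UBQ10 at 1006.3, 1139.2 and 1180.0 CPM in bbx202122, against 1306.8, 1368.3 and 1324.1 CPM in hy5, and PP2AA3 at 65.4 ± 4.19 CPM in bbx202122 and 76.7 ± 1.52 CPM in hy5; the call of PP2AA3 was lost with plain library sizes and with FPKM, where 1 member was called higher, and 1 was called in all without bbx202122 replicate 1, bbx202122 replicate 3 or hy5 replicate 3.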
